A study of Rattus norvegicus with 9 samples.

Results

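The chemokines and chemokine receptors of the rat were followed as 55 protein-coding genes, 34 ligands and 21 receptors, of the 35360 genes in the deposited count table (22250 of them annotated as protein-coding). They were taken by symbol alone. The ligands were the Ccl and Cxcl series, Cx3cl1 and Xcl1. The receptors were the Ccr and Cxcr series, Cx3cr1, Xcr1, Ccrl2 and the atypical receptors of the Ackr series. The rule used no measured value, but the members were chosen with earlier results of these data known. Of these, 43 genes (26 ligands and 17 receptors) passed the filter on low counts and were tested, and the other 12 are described by their counts. Cxcl5, Ccr2 and Ackr1 were not analysed here.

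The study sequenced poly-A RNA of the middle end of fractured rat femurs, and its 9 libraries formed 3 groups of 3. All 9 came from fractured bone that had received a gel: Gel is the gel alone and the control (labelled Control), ALN gel (labelled ALN+Gel) adds the bisphosphonate that the labels call ALN, and Mg-ALN gel (labelled BiMOF or Mg-ALN@Gel) is a bone adhesive with a metal-organic framework of magnesium and ALN. No unfractured or untreated bone was used here. The study's design concerns whether the magnesium counters the effect of the bisphosphonate on the bone. The rats' strain, sex and age, the ALN dose and the time after fracture were not given in the sources used here, and the labels do not say that replicates are separate animals, so p-values speak only of the spread among these 9 samples, and that spread may be technical.

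Chemokines are small secreted proteins that direct the movement of leukocytes, and they act through receptors that couple to inhibitory G proteins. CXC ligands with the ELR sequence draw neutrophils through Cxcr2, inflammatory CC ligands draw monocytes and other myeloid cells through receptors such as Ccr1 and Ccr2, and Cxcl12 holds blood stem and precursor cells in the bone marrow through Cxcr4. In bone, several of them act on the precursors of osteoclasts, the bone-resorbing cells that bisphosphonates target, while atypical receptors take up chemokines without signalling through G proteins.

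The results below turn on Ccl9, with its highest values in the 3 ALN gel libraries, and on the neutrophil ligands Cxcl1, Cxcl2 and Cxcl6, whose mean there was the lowest of the 3 groups but which overlapped with Gel. None of the 4 passed an adjusted p of 0.05 by edgeR. Their proximal promoters are shown because each holds a match to the kB pattern, the letters bound by NF-kB, a regulator of inflammatory genes. Each line gives the 120 bases just before the transcription start of the RefSeq entry (assembly GRCr8, all 4 on the minus strand), written 5′ to 3′, and capitals mark the kB matches. The positions are chr14:17479322-17479441 for Cxcl1, chr14:17467256-17467375 for Cxcl2, chr14:17596418-17596537 for Cxcl6 and chr10:68868878-68868997 for Ccl9.
Cxcl1: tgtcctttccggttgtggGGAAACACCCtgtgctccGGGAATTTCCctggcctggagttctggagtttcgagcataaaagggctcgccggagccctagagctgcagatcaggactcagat
Cxcl2: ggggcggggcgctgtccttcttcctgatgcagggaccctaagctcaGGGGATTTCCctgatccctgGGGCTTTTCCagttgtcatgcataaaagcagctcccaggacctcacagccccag
Cxcl6: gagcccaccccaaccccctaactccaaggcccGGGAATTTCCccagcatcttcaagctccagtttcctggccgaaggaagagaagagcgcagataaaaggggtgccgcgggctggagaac
Ccl9: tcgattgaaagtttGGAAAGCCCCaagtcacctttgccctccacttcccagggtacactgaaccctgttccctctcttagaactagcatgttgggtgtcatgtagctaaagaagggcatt

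The kB pattern searched was GGG, any 2 bases, then TTTCC, on both strands and over the 250 bases before each start. Cxcl1 and Cxcl2 held 2 matches each, and Cxcl6 and Ccl9 1 each. Of 42 members with a RefSeq promoter, 6 held the pattern (Cxcl1, Cxcl2, Cxcl6, Ccl9, Ccl20 and Ccr3), which is 14.3%, against 1.3% of all 33469 promoters of that length. The AP-1 pattern TGANTCA was in 7 of the 42 (Ccl7, Ccr3, Cxcl10, Cxcl11, Cxcl14, Cxcr6 and Xcr1), which is 16.7%, against 6.34% of all promoters. The C/EBP pattern TTGCNNAA was in 7 (16.7%, among them Cxcl2, Cxcl6 and Cxcl13) against 9.22%, and the TATA box TATAAA in 11 (26.2%) against 12.9%. The interferon pattern (TTTC, any 2 bases, then TTTC) was in 2 members, Ccl19 and Cxcl10 (4.76%), against 3.41%. The STAT pattern TTCNNNGAA was in 4 (9.52%) against 7.67%, and the PU.1 core GAGGAA in 18 (42.9%) against 23.3%. Each pattern searched thus had a higher share among the members than among all promoters. The kB and PU.1 patterns can share letters, as they do in Ccr3. Members of a cluster are related genes and are not independent, the motifs were chosen with expression values known, and a match describes letters only.

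Libraries held 13388689 to 18763270 counts. The share of counts from mitochondrially encoded genes was 17.5, 5.4 and 4.16% in the Gel libraries 1 to 3, 39.5, 15.6 and 7.61% with ALN gel, and 11.2, 10.6 and 31.6% with Mg-ALN gel, so the ranges of the 3 groups overlapped. Markers of osteoblasts and osteocytes (8 genes, 3480 to 13700 summed CPM, counts scaled to library size) and of stroma (7 genes, 2670 to 10900) were detected in every library with no marker at 0, and the tissue label thus matched its bone markers. Muscle fibre markers (5 genes) were uneven, at 46.3, 60.3 and 6390 summed CPM in Gel, 1400, 47.8 and 1040 with ALN gel, and 150, 86.2 and 7.75 with Mg-ALN gel. Gel library 3 and ALN gel libraries 1 and 3 thus held the most muscle transcripts. Erythroid markers (6 genes) ranged from 213 to 8700 summed CPM. B and plasma cell markers (7 genes) ranged from 1.19 to 439. Both were lowest in Mg-ALN gel library 2. The part of muscle, erythroid or B-lineage content in the values below was not tested. In bulk RNA, fewer cells of a type and less RNA per cell cannot be told apart.

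Levels between genes were compared per length, as deposited FPKM averaged over the 9 libraries. The highest ligands were Cxcl13, the B cell attractant (mean 171 FPKM, range 4.15 to 763), Cxcl6 (151, 0 to 416), Cxcl2 (135, 0.0649 to 453) and Ccl9 (117, 24.9 to 390). Ccl2 (92.6), Ccl3 (89.9), Cxcl16 (83.6), Cxcl14 (82.4) and Cxcl12 (77.3) followed. The ranges show that neighbours in this order did not differ beyond their spread. Of the receptors, the highest was Cxcr4 (77.9 FPKM, range 40.3 to 124), at the level of Cxcl12, followed by Ccr1 (30.0, 11.1 to 55.5), the Cxcl12 scavenger Ackr3 (29.2, 4.55 to 69.6) and the neutrophil receptor Cxcr2 (14.1, 0.112 to 36.5).

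The make-up of the ligand pool differed between libraries. Of the summed ligand FPKM, Ccl9 made up 7.41, 1.33 and 1.72% in Gel libraries 1 to 3, 42.1, 20.2 and 27.6% with ALN gel, and 2.63, 5.69 and 6.03% with Mg-ALN gel. Each ALN gel library lay above the other 6. Cxcl6 made up 0.0595, 19.5 and 19% in Gel, 0, 2.89 and 1.42% with ALN gel, and 6, 22.9 and 23.3% with Mg-ALN gel, where Gel library 1 sat with the ALN gel libraries. In Gel library 1 the pool was instead mostly Cxcl14 (38.4%) and Cxcl12 (28.6%).

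**Figure D1:**
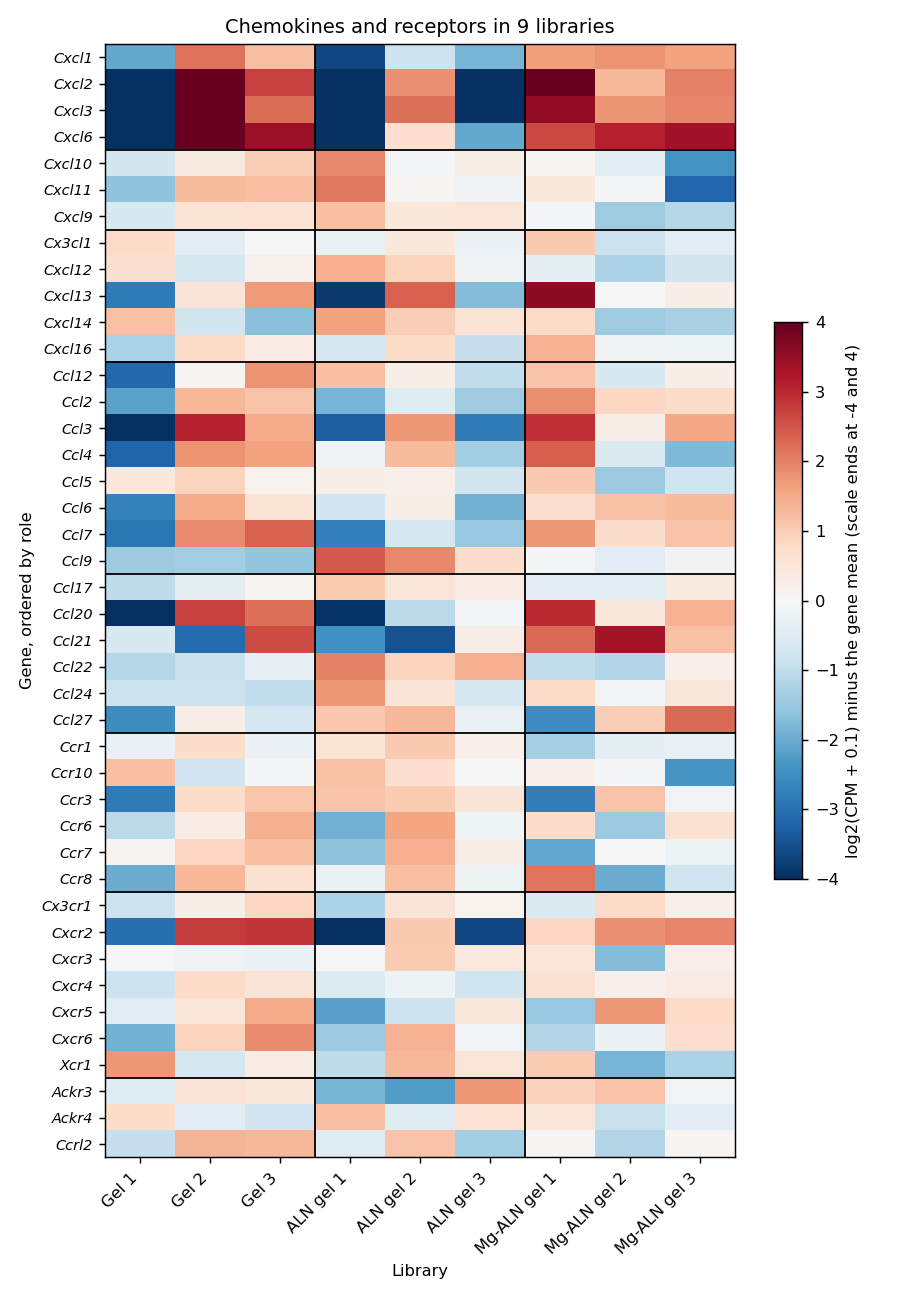
Levels of 42 of the 43 tested members in the 9 libraries, as log2(CPM + 0.1) minus the mean of each gene, with genes ordered by role, lines between roles and between groups, and colours ending at −4 and 4. Ccl9 is above its mean in the 3 ALN gel libraries alone, and Cxcl1, Cxcl2, Cxcl3, Cxcl6 and Cxcr2 are lowest in Gel library 1 and ALN gel libraries 1 and 3.

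With ALN gel, the myeloid ligand Ccl9 stood at 349 ± 188 CPM (SD, n = 3), against 34.6 ± 2.23 in Gel. The T helper attractants Ccl22 and Ccl17, the eotaxin Ccl24 and the lymphocyte receptor Cxcr3 were also above Gel in every library, at much lower levels. The neutrophil attractant Cxcl1 and the monocyte attractants Ccl2 and Ccl7 had lower means, with overlap. For this comparison, edgeR's quasi-likelihood test with Benjamini-Hochberg adjustment over all 15460 genes tested called 0 of 43 members at an adjusted p under 0.05, and 0% of all genes. At an unadjusted p under 0.05, 3 members were higher (Ccl9, Ccl22 and Ccl24, 6.98% of members, against 5.78% of all genes) and 3 lower (Cxcl1, Ccl7 and Ccl2, 6.98% against 2.42%). The ALN gel libraries all lay above the Gel libraries for 5 members (Ccl9, Ccl22, Ccl24, Ccl17 and Cxcr3, 11.6% against 11.1% of all genes) and all below for 0 (against 5.03%). DESeq2 called 2 of the 40 members to which it gave an adjusted p, Ccl9 and Ccl22, against 0.589% of genes, and limma-voom with sample quality weights called 1 of 43, Ccl9, against 1.7%. The share of members at an unadjusted p or without overlap in the higher direction was thus near that of all genes. The count of 3 lower members was 9 without Gel library 1, 1 when ALN gel library 1 was dropped and 10 when ALN gel library 2 was, and it was 0 in a fit with the mitochondrial share as covariate.

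Same-numbered Gel and ALN gel libraries deviated together from their group means, so these groups were also read pair by pair, an addition made after the values were seen. ALN gel was higher in all 3 pairs for 8 members (Ccl9, Ccl22, Ccl24, Ccl17, Ccl27, Cxcl14, Ccr1 and Cxcr3, 18.6% against 22.9% of all genes) and lower in all 3 for 6 (Cxcl1, Cxcl6, Ccl5, Ccl21, Cxcr2 and Cxcr5, 14% against 17.3%). Both shares were below those of all genes. With the replicate number as a block, 4 members were higher at an unadjusted p under 0.05 (9.3% against 6.57% of genes) and 2 lower (4.65% against 3.36%), and 0 passed after edgeR adjustment.

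With Mg-ALN gel, Ccl9 (82.3 ± 10.8 CPM, SD, n = 3), Ccl22, the interferon-induced Cxcl9, the marrow factor Cxcl12 and the myeloid receptor Ccr1 were below ALN gel in every library. Cxcl1, at 72.1 ± 4.9 CPM against 6.76 ± 5.46 (SD, n = 3), was above it in every library, as were Cxcl6, Ccl2, Ccl6, Ccl7, Ccl20, Ccl21 and Cxcr4. Comparing these groups, edgeR again called 0 of 43 members at an adjusted p under 0.05, and 0% of genes. At an unadjusted p under 0.05, 5 members were higher (Cxcl1, Ccl2, Ccl7, Cxcr4 and Ccl21, 11.6% against 3.76% of genes) and 5 lower (Ccl9, Ccl22, Cxcl12, Ccr1 and Cxcl9, 11.6% against 5.43%). The groups did not overlap for 8 members higher in Mg-ALN gel (these 5 with Ccl20, Ccl6 and Cxcl6, 18.6% against 6.76% of genes) and for 5 lower members (11.6% against 9.77%), the same 5 as above. DESeq2 called 3 of 46 members (Ccl9, Ccl22 and Cxcl1) against 0.937% of genes, and limma-voom called 0 of 43 against 0.0129%. Leaving out 1 library moved the count of 5 higher members: it was 8 without Gel library 1, 2 when ALN gel library 1 was dropped, 11 when ALN gel library 2 was, 2 when Mg-ALN gel library 1 was and 3 when Mg-ALN gel library 2 was. This comparison shares the ALN gel libraries with the one before, so low or high values there enter both with opposite signs.

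Set against Gel, Mg-ALN gel had higher Ccl9 and Ccl24 and lower Ccr1 and Ccr7 in every library, and the other tested members overlapped. Here edgeR called 0 of 43 members at an adjusted p under 0.05, and 0% of genes. At an unadjusted p under 0.05, 1 member was higher (Ccl9, 2.33% against 5.43% of genes) and 0 were lower (against 3.88%). Groups did not overlap for 2 higher members (Ccl9 and Ccl24, 4.65% against 9.76%) and 2 lower ones (Ccr1 and Ccr7, 4.65% against 8.56%). DESeq2 called 0 of 44 members against 0.297% of genes, and limma-voom called 0 of 43, as it did of all genes (0%). The count of higher members was 2 when library 3 of Gel, or library 1 or 3 of ALN gel, was dropped. The count of lower members was 3 with Gel library 1 or Mg-ALN gel library 1 dropped, and 1 with Gel library 2 or ALN gel library 3 dropped. In the joint test of the 3 groups, edgeR called 0 of 43 members (0% of genes), and at an unadjusted p under 0.05 it held 8 members (18.6% against 9.29% of genes). These were Ccl9, Ccl22, Cxcl1, Cxcl12, Ccr1, Ccl2, Ccl7 and Ccl24.

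The median log2 fold change over the 43 members was −0.23 in ALN gel versus Gel (17 positive), against 0.00 over all genes tested, and lay between −1.06 (ALN gel library 2 left out) and 0.14 (Gel library 3 left out). It was 0.15 in Mg-ALN gel versus ALN gel (24 positive), against −0.04 over all genes, and lay between −0.60 (Mg-ALN gel library 1 left out) and 0.67 (ALN gel library 2 left out). In Mg-ALN gel versus Gel it was −0.11 (19 positive), against −0.03 over all genes, and lay between −0.65 (Mg-ALN gel library 1 left out) and 0.17 (Gel library 3 left out). No direction of the family as a whole held over these alternatives. Replicates of 1 group were also farther apart for these genes than for most. The median SD within groups, on the log2 CPM scale, was 1.36 over the members against 0.52 over all genes, and it reached 4.55 over the 4 neutrophil ligands.

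**Figure D2:**
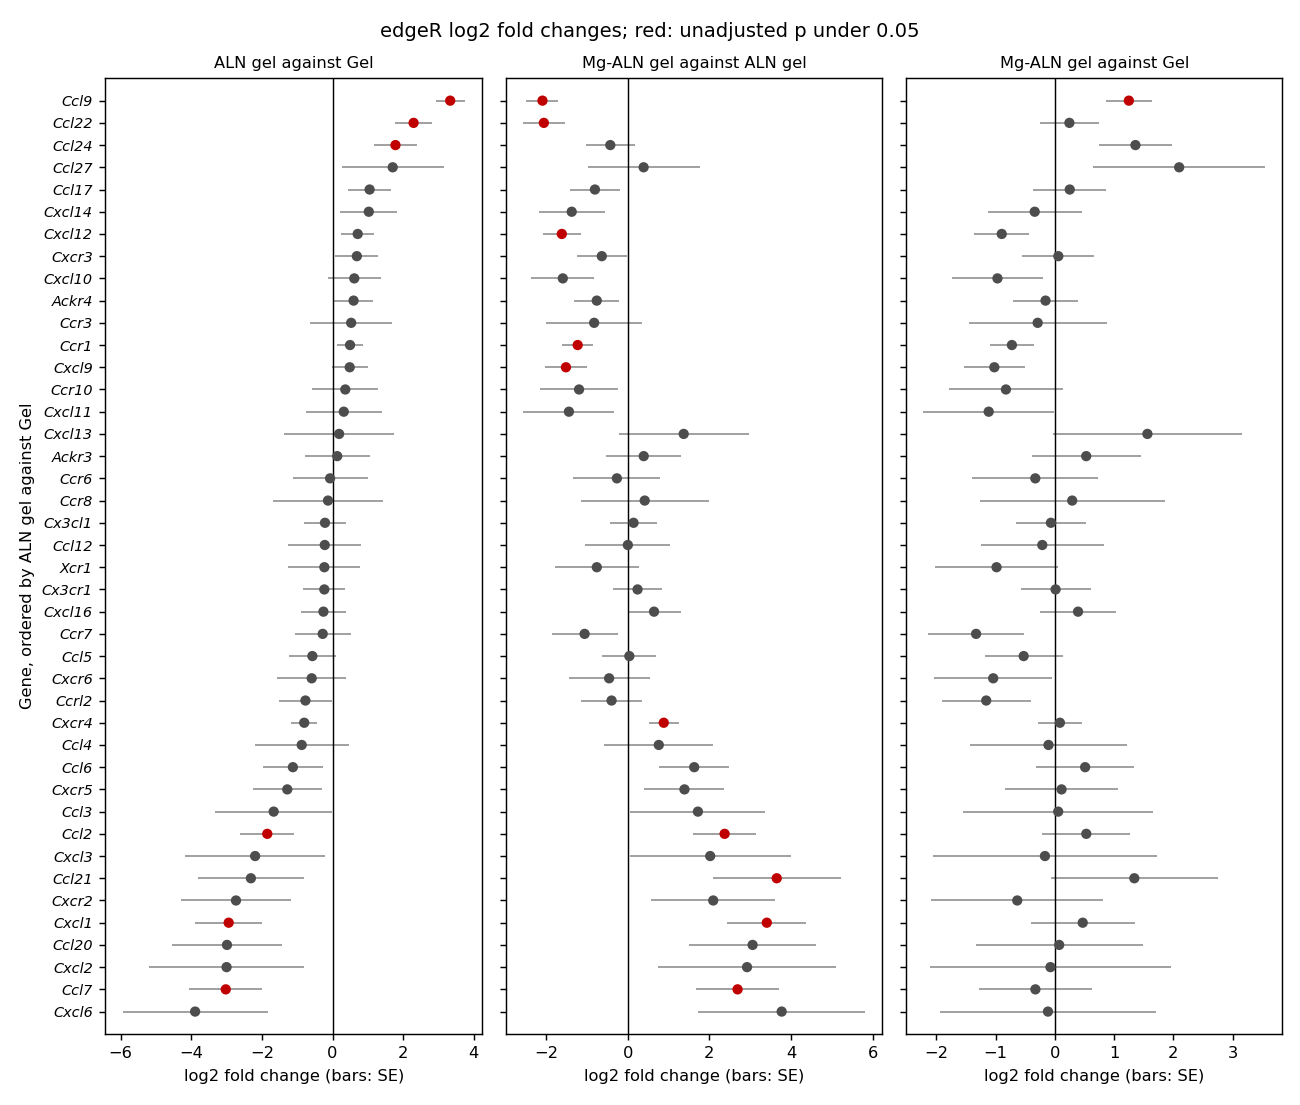
The edgeR log2 fold changes of 42 of the 43 tested members in the 3 comparisons, with the standard error as bars, ordered by ALN gel versus Gel; red points have an unadjusted p under 0.05. Ccl9, Ccl22 and Ccl24 are at the top of the first panel and Cxcl1, Ccl7 and Ccl2 are the red points below 0, while 0 members pass after adjustment.

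Among the inflammatory CC ligands, Ccl9 stood apart. Ccl9 (ENSRNOG00000028548, chromosome 10, 70783424 to 70788309, minus strand, in the deposited annotation, whose build is not given in the sources used here) is a myeloid chemokine that binds Ccr1 and is also made by osteoclasts. It had 35.2, 36.5 and 32.2 CPM (counts scaled to the size of the library) in the Gel libraries, 529, 363 and 155 with ALN gel, and 90.0, 69.9 and 86.9 with Mg-ALN gel. The 3 groups did not overlap: every ALN gel library was highest, every Gel library lowest, and the Gel libraries were nearly equal. The log2 fold change was 3.33 (SE 0.41) for ALN gel versus Gel, −2.08 (SE 0.39) for Mg-ALN gel versus ALN gel and 1.25 (SE 0.38) for Mg-ALN gel versus Gel. By edgeR the adjusted p was 0.155, 0.454 and 0.53 in that order, although in ALN gel versus Gel Ccl9 had rank 2 of all genes by p. DESeq2 gave an adjusted p of 7.36e-11, 0.000923 and 0.198, and limma-voom 0.0235, 0.104 and 0.245.

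Ccl9 was the member whose edgeR call turned on 1 library. Without ALN gel library 3, the lowest of its group, its log2 fold change in ALN gel versus Gel was 3.63 with an edgeR adjusted p of 0.00883. Over the 16 alternatives the value lay between 2.87 and 3.63. It was 2.90 without ALN gel library 1, the library with the highest mitochondrial share, and 2.87 with that share as a covariate. The summed CPM of 14 osteoclast markers was 18700, 4610 and 2470 in Gel, 31900, 28200 and 22200 with ALN gel, and 3960, 11400 and 12800 with Mg-ALN gel, with Dcstamp at 0 in all but ALN gel libraries 1 and 3. By this sum the order of the ALN gel libraries was the same as for Ccl9. With each tested marker weighted equally, as the mean of log2 CPM centred on each gene, it was not. ALN gel libraries 1 to 3 then had 1.08, 1.37 and 1.02, with library 2 highest. Gel library 1 was above all 3 Mg-ALN gel libraries in the markers and below all 3 in Ccl9. Of 13 tested markers, 13 had positive values in ALN gel versus Gel, 5 of them at an unadjusted p under 0.05 (all genes 5.78%). In Mg-ALN gel versus ALN gel 0 were positive, and 9 were lower at that threshold (all genes 5.43%). In Mg-ALN gel versus Gel 5 were positive, and 0 passed after edgeR adjustment in any comparison. The part of osteoclast content in the Ccl9 values was not tested.

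**Figure D3:**
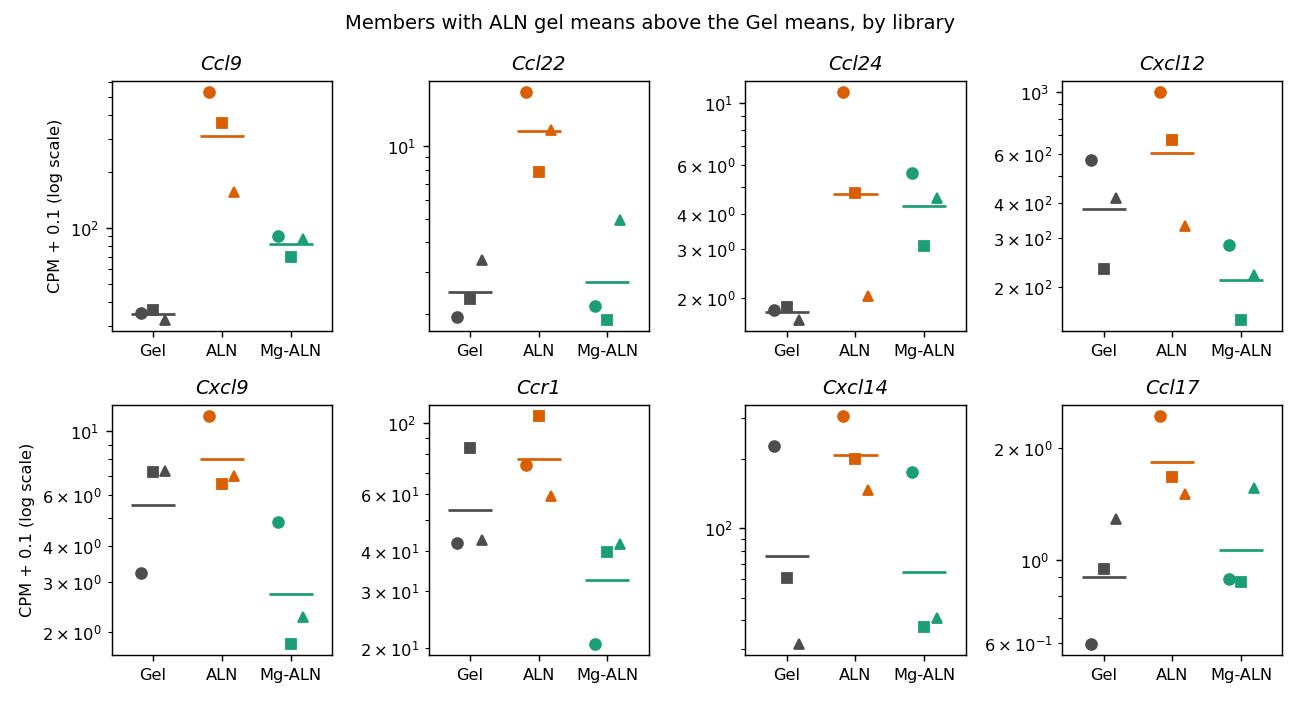
Values by library for 8 members with a higher geometric mean in ALN gel than in Gel, as CPM + 0.1 on a log axis; circles, squares and triangles are libraries 1, 2 and 3 and lines are group geometric means. Ccl9 and Ccl22 have all 3 ALN gel libraries above all others, whereas ALN gel library 3 lies within the range of Gel for Cxcl12.

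The monocyte attractants Ccl2, Ccl7 and Ccl12 lie in 1 stretch of chromosome 10, with Ccl11 between Ccl7 and Ccl12. Ccl2, the main ligand of Ccr2, had 11.7, 131 and 115 CPM in Gel, 14.4, 37.7 and 19.5 with ALN gel, and 190, 94.0 and 88.0 with Mg-ALN gel. Its ALN gel libraries were all below those of Mg-ALN gel, but Gel library 1 was lower still. Its log2 fold change was −1.85 (SE 0.76, edgeR adjusted p = 0.586) for ALN gel versus Gel and 2.38 (SE 0.78, 0.496) for Mg-ALN gel versus ALN gel. The first of these was −1.13 in a fit with the mitochondrial share as covariate.

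Ccl7, a relative that also binds Ccr1, had 3.42, 96.8 and 132 CPM in Gel, 3.80, 15.7 and 8.99 with ALN gel, and 86.2, 42.3 and 56.7 with Mg-ALN gel. The same layout held as for Ccl2, with Gel library 1 below all ALN gel libraries. The log2 fold changes were −3.02 (SE 1.03, edgeR adjusted p = 0.543) and 2.69 (SE 1.02, 0.504). Ccl12, also of this stretch, had 0.285 to 11.7 CPM in Gel, 1.64 to 7.76 in ALN gel and 2.14 to 7.33 in Mg-ALN gel, with overlap throughout and log2 fold changes of −0.22 (SE 1.04) and 0.01 (SE 1.04).

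Ccl3, Ccl4 and Ccl5 attract monocytes and T cells, and Ccl6, like Ccl9, is a myeloid CC ligand. Ccl3 had 0.712, 195 and 65.3 CPM in Gel, 2.25, 76.7 and 3.2 with ALN gel, and 176, 27.2 and 68.0 with Mg-ALN gel. The groups overlapped, since Gel library 1 was lowest of all and ALN gel library 2 was within the range of Mg-ALN gel. Its log2 fold changes were −1.67 (SE 1.65) and 1.72 (SE 1.65). Ccl6 had 8.75, 160 and 83.1 CPM in Gel, 33.5, 67.1 and 15.4 with ALN gel, and 90.2, 130 and 139 with Mg-ALN gel, so ALN gel was below Mg-ALN gel without overlap (log2 fold change 1.63, SE 0.85, edgeR adjusted p = 0.592). Ccl4 and Ccl5 ranged from 0.214 to 15.2 and from 1.37 to 8.20 CPM, with the groups overlapping in each comparison. Of the 8 inflammatory CC ligands, 7 had negative values in ALN gel versus Gel and 7 positive values in Mg-ALN gel versus ALN gel, and Ccl9 was the exception in both. In the second comparison limma-voom gave negative values to Ccl4, Ccl5 and Ccl12 as well.

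Ccl9 and Ccl6 are neighbours with 8.81 kb between them, and their values ran in opposite directions in both comparisons with ALN gel. They are related genes within a cluster, like Ccl2, Ccl7 and Ccl12, Ccl3 and Ccl4, Cxcl1, Cxcl2 and Cxcl3, or Cxcr1 and Cxcr2. How alike their sequences are was not measured. Values of such genes are uncertain where the authors' counting could split reads between them. The strand setting of the counting is not stated, so members that overlap another gene are uncertain too: Ccl3 (an antisense locus), Cxcl10 and Cxcl11 (Art3), Cxcl16 (Zmynd15), Ccl27 (Il11ra1), Cxcr6 (Fyco1) and Ackr4 (Acad11) among them.

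Of the other CC ligands, those that attract helper T cells through Ccr4 were higher in ALN gel by value. Ccl22 (ENSRNOG00000016535, chromosome 19, 10674189 to 10681145) had 1.85, 2.20 and 3.26 CPM in Gel, 16.7, 7.72 and 11.6 with ALN gel, and 2.05, 1.79 and 4.83 with Mg-ALN gel. Every ALN gel library lay above the other 6, and Gel and Mg-ALN gel overlapped. Its log2 fold change was 2.29 (SE 0.52) for ALN gel versus Gel and −2.05 (SE 0.51) for Mg-ALN gel versus ALN gel, with edgeR adjusted p of 0.505 and 0.496 and DESeq2 adjusted p of 0.00953 and 0.021. Over the 16 alternatives the first lay between 1.87 and 2.5 and the second between −2.64 and −1.71.

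Ccl17, the other Ccr4 ligand, had 0.498, 0.846 and 1.19 CPM in Gel, 2.33, 1.57 and 1.40 with ALN gel, and 0.788, 0.774 and 1.46 with Mg-ALN gel. ALN gel was above Gel without overlap, but the difference did not pass (log2 fold change 1.05, SE 0.61, edgeR adjusted p = 0.699). Cx3cl1, the membrane-bound ligand that lies between Ccl17 and Ccl22 on chromosome 19 (23.6 and 20.4 kb away), had values of 2.44 to 9.38 CPM with overlap in each comparison, and a log2 fold change of −0.21 (SE 0.59) for ALN gel versus Gel. Ccr4, the receptor of Ccl17 and Ccl22, had too few counts to be tested. The summed CPM of 7 dendritic cell markers, cells known to make Ccl17 and Ccl22, was 83.1, 94.9 and 99.5 in Gel, 130, 166 and 129 with ALN gel, and 60.9, 102 and 80.5 with Mg-ALN gel. By this sum the ALN gel libraries were highest here too, with Cd209a at 0 in all but ALN gel library 1 and Siglech at 0 in 4 libraries. With each tested marker weighted equally, as the mean of log2 CPM centred on each gene, Gel library 3 (0.405) lay above ALN gel library 1 (0.396). In ALN gel versus Gel, 5 of 5 tested markers were positive, 1 of them (Itgax) at an unadjusted p under 0.05 (all genes 5.78%). The part of these cells in the Ccl22 values was not tested.

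Ccl24, an eotaxin that attracts eosinophils through Ccr3, had 1.71, 1.75 and 1.57 CPM in Gel, 10.8, 4.64 and 1.94 with ALN gel, and 5.52, 2.98 and 4.45 with Mg-ALN gel. All 6 libraries with ALN lay above the 3 Gel libraries. The log2 fold change was 1.78 (SE 0.62, edgeR adjusted p = 0.545) for ALN gel versus Gel and 1.36 (SE 0.61, 0.53) for Mg-ALN gel versus Gel. The first rested in part on ALN gel library 1, without which it was 0.97, and it was 0.99 with the mitochondrial share as a covariate.

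Ccl21, which guides lymphocytes and dendritic cells through Ccr7, had 1.07, 0.113 and 10.8 CPM in Gel, 0.233, 0.0627 and 2.07 with ALN gel, and 8.51, 17.9 and 3.94 with Mg-ALN gel. Mg-ALN gel was above ALN gel without overlap (log2 fold change 3.65, SE 1.57, edgeR adjusted p = 0.528), and the value was 6.08 without ALN gel library 3. Ccl20, the ligand of Ccr6, had 0, 17.5 and 12.3 CPM in Gel, 0.0776, 1.19 and 2.43 with ALN gel, and 21.0, 3.57 and 6.86 with Mg-ALN gel. Its count of 0 in Gel library 1 allows up to 0.214 CPM (3 counts, counting error only), and its log2 fold changes were −2.99 (SE 1.55) and 3.06 (SE 1.55). Ccl27, a skin ligand of Ccr10, stayed between 0 and 2.6 CPM with overlap.

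The 4 neutrophil ligands of the CXC class lie on chromosome 14, bind Cxcr2 and had the highest median spread within groups of all roles, although Cxcl1 (SD 1.53 on the log2 scale) was far less spread than Cxcl2, Cxcl3 and Cxcl6 (4.54 to 4.81). Cxcl1 (ENSRNOG00000002802, 18743685 to 18745457, minus strand), whose promoter is printed above with both its NF-kB matches, had 5.27, 99.9 and 51.0 CPM in Gel, 1.71, 12.5 and 6.02 with ALN gel, and 71.2, 77.4 and 67.8 with Mg-ALN gel. The Mg-ALN gel libraries were within 1.14 times of each other and all above ALN gel, while Gel library 1 fell within the ALN gel range. Set against the Gel library of the same number, each ALN gel library was lower. Its log2 fold change was −2.94 (SE 0.95) for ALN gel versus Gel and 3.41 (SE 0.97) for Mg-ALN gel versus ALN gel. The adjusted p was 0.536 and 0.496 by edgeR and 0.0601 and 0.0151 by DESeq2. Mg-ALN gel and Gel differed by 0.47 (SE 0.88), and the groups overlapped.

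Cxcl6 (18860264 to 18862407) had 0.356, 672 and 448 CPM in Gel, 0, 65.5 and 9.97 with ALN gel, and 258, 354 and 422 with Mg-ALN gel. Mg-ALN gel was above ALN gel in every library. The SE of its log2 fold changes was large, at −3.89 (SE 2.05) for ALN gel versus Gel and 3.77 (SE 2.04) for Mg-ALN gel versus ALN gel, with edgeR adjusted p of 0.68 and 0.604. The 0 counts of ALN gel library 1 allow up to 0.233 CPM.

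Cxcl2 (18731378 to 18733391) had 0.0712, 483 and 143 CPM in Gel, 1.01, 76.9 and 0.365 with ALN gel, and 453, 54.5 and 87.2 with Mg-ALN gel. The values formed a low set of 3 libraries, Gel library 1 and ALN gel libraries 1 and 3, and a high set of 6. Cxcl3 had 0, 155 and 44.6 CPM in Gel, 0.155, 43.0 and 0.486 with ALN gel, and 110, 32.2 and 35.9 with Mg-ALN gel, with the same 3 libraries low. In Gel library 1 the 0 counts of Cxcl3 allow up to 0.214 CPM. The log2 fold changes in Mg-ALN gel versus ALN gel were 2.92 (SE 2.19) for Cxcl2 and 2.02 (SE 1.97) for Cxcl3, and neither passed. Over the 4 ligands the median was −2.97 in ALN gel versus Gel, 3.17 in Mg-ALN gel versus ALN gel and −0.10 in Mg-ALN gel versus Gel. Of 10 tested neutrophil markers, 5 were higher with Mg-ALN gel than with ALN gel at an unadjusted p under 0.05 (against 3.76% of all genes) and 0 lower (against 5.43%). Their median log2 fold change there was 2.06. In Mg-ALN gel versus Gel, unlike the ligands, 9 of the 10 were positive (median 1.86), with 2 higher (against 5.43%) and 0 lower (against 3.88%). In ALN gel versus Gel 4 were positive (median −0.73), with 0 higher and 0 lower at that threshold. After edgeR adjustment 0 passed in any comparison.

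The low set of 3 libraries was not confined to neutrophil ligands. Gel library 1 and ALN gel libraries 1 and 3 were the 3 lowest of 9 for 12 members: Cxcl1, Cxcl2, Cxcl3, Cxcl6, Cxcl13, Cxcl16, Ccl2, Ccl3, Ccl6, Ccl7, Cxcr2 and Cxcr4. This layout was noticed in the values and is given as a description. Over all 43 members, Gel library 1 was the lowest library for 17 and Gel library 2 for 0, while ALN gel library 1 was the highest for 11. None of these counts was made over all genes tested, so these layouts cannot be called particular to the members. The summed CPM of 13 macrophage and monocyte markers was 2030, 10800 and 6310 in Gel, 3690, 10200 and 3380 with ALN gel, and 25100, 4590 and 6270 with Mg-ALN gel, with no marker at 0. By this sum the same 3 libraries were lowest. With each marker weighted equally, as the mean of log2 CPM centred on each gene, Gel library 1 was still lowest (−1.22). Mg-ALN gel library 2 (−0.731) then lay below ALN gel libraries 3 (−0.537) and 1 (−0.315). The 12 neutrophil markers summed to 184, 1380 and 1110 CPM in Gel, 596, 640 and 181 with ALN gel, and 8660, 1070 and 2430 with Mg-ALN gel. Ltf was at 0 in all but Gel library 3, Cd177 at 0 in 3 libraries and Mpo in 1. With each tested neutrophil marker weighted equally, ALN gel library 3 (−1.81), Mg-ALN gel library 2 (−1.78) and Gel library 1 (−1.4) were lowest. ALN gel library 1 was then at 0.0859, so the sums and this score ordered the libraries differently. The 13 immediate early genes, listed as a sign of RNA quality and handling, summed to 845, 2000 and 1920 CPM in Gel, 575, 870 and 1320 with ALN gel, and 2060, 2250 and 1620 with Mg-ALN gel. In ALN gel versus Gel 0 of the 13 were positive (median log2 fold change −0.83), with 0 higher and 0 lower at an unadjusted p under 0.05. In Mg-ALN gel versus ALN gel 12 were positive (median 1.03), with 4 higher (against 3.76% of all genes) and 0 lower (against 5.43%). In Mg-ALN gel versus Gel 9 were positive (median 0.26). After edgeR adjustment 0 passed in any comparison. The part of these in the chemokine values was not tested.

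**Figure D4:**
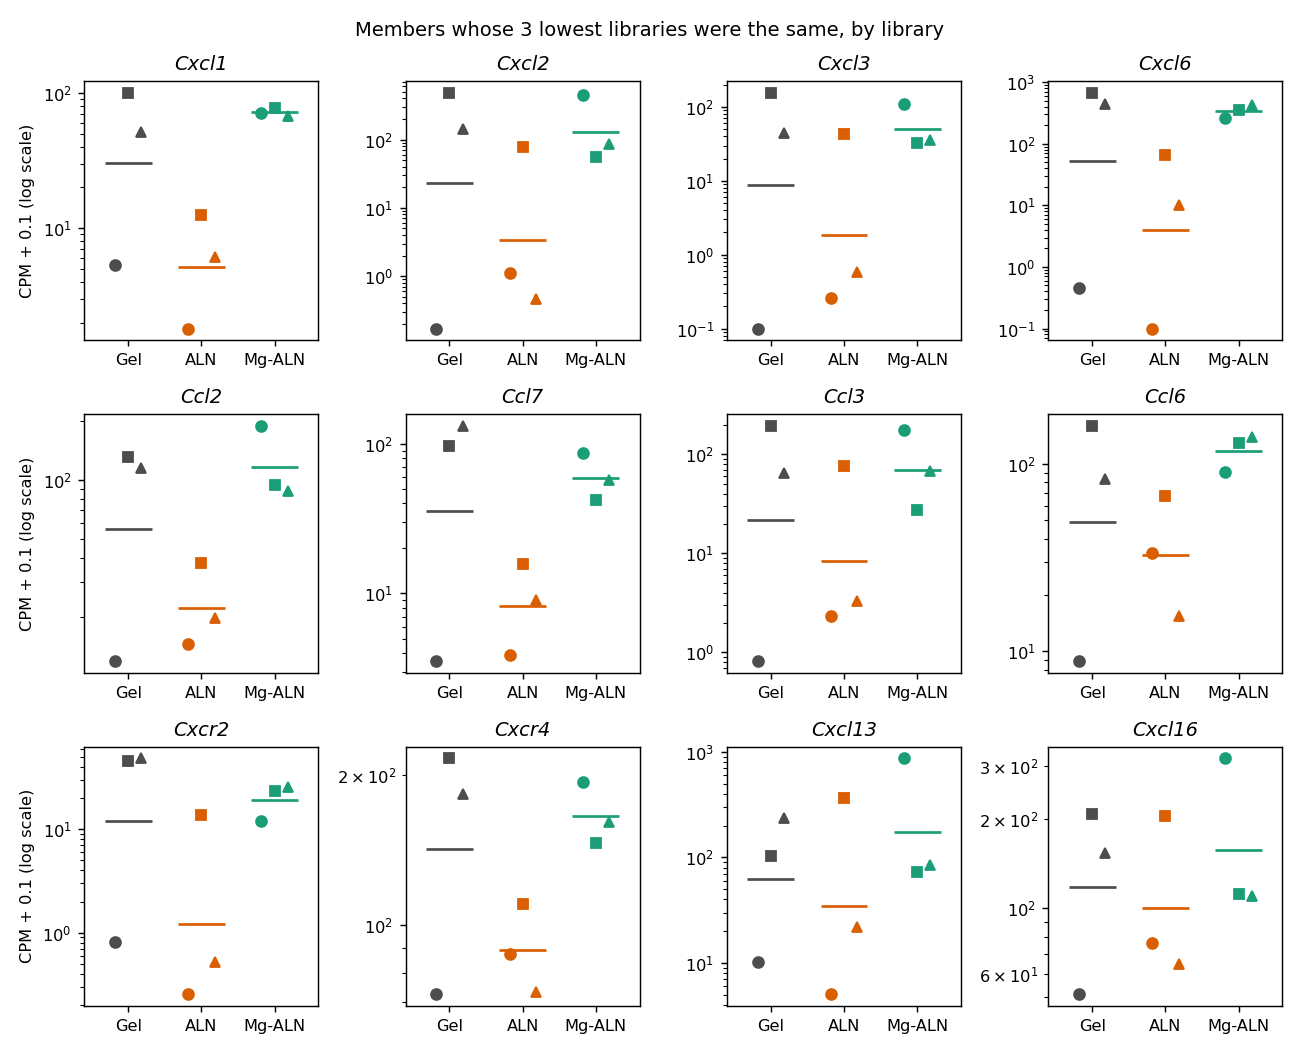
Values by library for the 12 members whose 3 lowest libraries were Gel library 1 and ALN gel libraries 1 and 3, as CPM + 0.1 on a log axis; circles, squares and triangles are libraries 1, 2 and 3 and lines are group geometric means. The circle is the lowest Gel symbol in every panel, and the ALN gel square is above the ALN gel circle and triangle.

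The 3 interferon-induced ligands, which attract T and NK cells through Cxcr3 and lie together on chromosome 14, had positive values in ALN gel versus Gel (0.32 to 0.62) and negative values in Mg-ALN gel versus ALN gel (−1.59 to −1.44). Cxcl9 had 3.13, 7.11 and 7.21 CPM in Gel, 11.2, 6.46 and 6.87 with ALN gel, and 4.73, 1.73 and 2.16 with Mg-ALN gel. Mg-ALN gel was below ALN gel without overlap (log2 fold change −1.51, SE 0.52, edgeR adjusted p = 0.496). Cxcl10 had 3.56, 7.84 and 12.1 CPM in Gel, 23.0, 5.90 and 7.17 with ALN gel, and 6.54, 4.41 and 1.08 with Mg-ALN gel, and Cxcl11 0.569, 4.85 and 4.64, then 8.84, 2.01 and 1.76, then 2.68, 1.85 and 0.127. Both overlapped between groups and had their highest value in ALN gel library 1. With quality weights, which lower the weight of variable libraries, limma-voom gave −0.25 for Cxcl10 and −0.75 for Cxcl11 in ALN gel versus Gel, so the direction of these genes was not settled.

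Cxcl12 (ENSRNOG00000013589, chromosome 4, 149261044 to 149273891), the marrow retention factor made by stromal cells, had 571, 232 and 415 CPM in Gel, 994, 671 and 331 with ALN gel, and 282, 152 and 220 with Mg-ALN gel. Each ALN gel library was above each Mg-ALN gel library, and Gel overlapped with both. Its log2 fold change was −1.61 (SE 0.47, edgeR adjusted p = 0.496, DESeq2 adjusted p = 0.0788) for Mg-ALN gel versus ALN gel and 0.71 (SE 0.46, edgeR adjusted p = 0.735) for ALN gel versus Gel. The 7 stromal markers summed to 7210, 10200 and 9680 CPM in Gel, 2670, 4030 and 7720 with ALN gel, and 10200, 10900 and 9120 with Mg-ALN gel, none at 0. Over the ALN gel libraries the order of these sums was the reverse of that of Cxcl12. In Mg-ALN gel versus ALN gel, 6 of the 7 markers had positive values, opposite to Cxcl12. The marker Lepr went the other way, at −2.42 (SE 1.10, edgeR adjusted p = 0.548), without overlap. The part of stromal content in the Cxcl12 values was not tested.

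Cxcl14, a ligand of resting tissues, had 228, 60.6 and 31.5 CPM in Gel, 307, 199 and 147 with ALN gel, and 175, 37.2 and 40.7 with Mg-ALN gel, with overlap in both comparisons with ALN gel. Library 1 was highest in each group. The log2 fold changes were 1.03 (SE 0.80) and −1.37 (SE 0.81). Cxcl13, which guides B cells through Cxcr5, had 10.1, 103 and 234 CPM in Gel, 4.97, 368 and 21.6 with ALN gel, and 865, 72.8 and 84.4 with Mg-ALN gel, with ALN gel library 1 the lowest and Mg-ALN gel library 1 the highest of all 9. Cxcl16, a membrane-bound ligand of Cxcr6, had 51.2, 207 and 153 CPM in Gel, 75.9, 204 and 64.5 with ALN gel, and 319, 111 and 110 with Mg-ALN gel. Neither Cxcl13 (log2 fold changes 0.19, SE 1.56, and 1.37, SE 1.59) nor Cxcl16 (−0.26, SE 0.65, and 0.65, SE 0.65) differed beyond the spread of its replicates.

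Among the CC receptors, Ccr1 (chromosome 8, 132996649 to 133002201), the receptor of Ccl9, Ccl6 and Ccl7 on myeloid cells and osteoclast precursors, had 42.1, 83.4 and 43.3 CPM in Gel, 74.2, 105 and 59.4 with ALN gel, and 20.5, 39.7 and 41.9 with Mg-ALN gel. Mg-ALN gel lay below both other groups without overlap. Its log2 fold change was −1.22 (SE 0.38, edgeR adjusted p = 0.496) against ALN gel and −0.73 (SE 0.38, 0.559) against Gel. Ccr7, the receptor of Ccl19 and Ccl21 on lymphocytes and mature dendritic cells, had 3.56 to 7.65 CPM in Gel and 0.709 to 3.28 in Mg-ALN gel without overlap (log2 fold change −1.33, SE 0.81, edgeR adjusted p = 0.604). Ccr3, Ccr6, Ccr8 and Ccr10 did not exceed 3.70 CPM in any library and overlapped in every comparison.

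Cxcr4 (chromosome 13, 45314933 to 45318878), the signalling receptor of Cxcl12, had 72.5, 216 and 183 CPM in Gel, 87.4, 110 and 73.1 with ALN gel, and 194, 146 and 161 with Mg-ALN gel. Mg-ALN gel was above ALN gel without overlap, opposite to its ligand (log2 fold change 0.89, SE 0.37, edgeR adjusted p = 0.524). The ALN gel libraries were below Gel libraries 2 and 3, and Gel library 1 was the lowest of all 9 (log2 fold change −0.80, SE 0.37, edgeR adjusted p = 0.634). Cxcr2 had 0.712, 45.2 and 48.1 CPM in Gel, 0.155, 13.5 and 0.425 with ALN gel, and 11.9, 23.1 and 25.5 with Mg-ALN gel, low in the same 3 libraries as its ligands. Its log2 fold changes were −2.73 (SE 1.55) and 2.10 (SE 1.52).

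Cx3cr1, a receptor of monocytes and osteoclast precursors, had 3.42, 7.39 and 11.3 CPM in Gel, 2.64, 9.16 and 6.99 with ALN gel, and 4.18, 10.8 and 7.30 with Mg-ALN gel. Library 1 was lowest in each group, and the log2 fold changes were −0.23 (SE 0.59), 0.24 (SE 0.59) and 0.01 (SE 0.59) in the 3 comparisons. Cxcr3, on activated T and NK cells, was above Gel (2.38 to 2.78 CPM) in each ALN gel library (2.87 to 5.84), with a log2 fold change of 0.69 (SE 0.61, edgeR adjusted p = 0.823). Cxcr5, Cxcr6 and Xcr1, receptors of lymphocytes and of a class of dendritic cells, ranged from 0.298 to 11.2 CPM and overlapped in every comparison.

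Of the atypical receptors, Ackr3 takes up Cxcl12. It had 29.5, 59.9 and 56.9 CPM in Gel, 11.7, 8.97 and 140 with ALN gel, and 79.7, 92.4 and 38.9 with Mg-ALN gel. ALN gel held both its lowest and its highest libraries, and the log2 fold change against Gel was 0.13 (SE 0.92), but −1.62 by limma-voom. Ackr4, which takes up Ccl19, Ccl21 and Ccl25, had 30.6, 13.7 and 10.8 CPM in Gel, 42.5, 13 and 27.7 with ALN gel, and 26.0, 9.95 and 13.4 with Mg-ALN gel, with overlap. Ccrl2, which presents chemerin, ranged from 4.56 to 31.1 CPM and overlapped in every comparison.

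Of the 12 untested members, Ccl28, a mucosal ligand, had 0 counts in all 9 libraries, which allows up to 0.169 to 0.236 CPM per library. Ccl1, Ccl11, Ccl19, Ccl25, Ccl26, Cxcl17 and Xcl1 among the ligands had 2 to 47 counts in total over the 9 libraries. Ccr4, Ccr9, Cxcr1 and Ackr2 among the receptors had 20 to 42. The 9 counts of Ccl26 were all in ALN gel library 1. Ccl19, the partner of Ccl21 at Ccr7, had 7 counts in all.

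Ligand and receptor levels were set against each other over the 9 libraries for 10 of 12 pairs, and the other pairs had a gene that was not tested or not analysed here. After Benjamini-Hochberg adjustment over the 10, 0 pairs passed by Pearson's r or Spearman's rho (exact permutation tests over pairings, two-sided). Of the pairs so computed, Cxcl12 with Ackr3 had the lowest p, at r = −0.772 (exact p = 0.0151, adjusted 0.151) and rho = −0.683 (exact p = 0.0503, adjusted 0.503). Its r was −0.644 without the 2 libraries farthest from the median of Cxcl12 and −0.739 on values centred within groups. Cxcl12 with Cxcr4 had r = −0.586 (exact p = 0.0992, adjusted 0.331), which was −0.239 on values centred within groups, and Ccl9 with Ccr1 r = 0.435 (exact p = 0.244, adjusted 0.428), which was −0.224 without 2 libraries. Ccl20 with Ccr6 had r = 0.624 (exact p = 0.0733, adjusted 0.331) and 0.0995 without 2 libraries, and thus rested on those. Since Cxcl2 fell into a low and a high set, it was set against Cxcr2 within the 6 high libraries, where r was 0.119 (exact p = 0.835) and rho 0.257 (exact p = 0.658), and r was 0.702 without 2 of them and −0.862 on values centred within groups. The gap that counts as a split was lowered from 0.5 to 0.4 of the range after the values were seen, and over all 9 libraries this pair had r = 0.897 (exact p = 0.00899, adjusted 0.0756).

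Genes around the family were counted from lists in the same fits. Of 34 genes of chemokine receptor signalling (G protein subunits, kinases, arrestins and their regulators), 1 was higher and 4 lower in ALN gel versus Gel at an unadjusted p under 0.05 (all genes 5.78 and 2.42%). In Mg-ALN gel versus ALN gel 3 were higher and 1 lower (all genes 3.76 and 5.43%), and 0 passed after edgeR adjustment in any comparison. Rgs1, which shuts off G protein signalling in leukocytes, had a log2 fold change of −1.56 (SE 0.48) and then 1.15 (SE 0.48), and its relative Rgs2 −1.08 (SE 0.44) and 1.44 (SE 0.45). Of 19 regulators of chemokine expression, 2 had positive values in ALN gel versus Gel, where 49.8% of all genes did, and at an unadjusted p under 0.05 4 were lower and 1 higher (all genes 2.42 and 5.78%). In Mg-ALN gel versus ALN gel 14 were positive, against 46.4% of all genes, with 5 higher and 1 lower (all genes 3.76 and 5.43%). Cebpd, a transcription factor of inflammatory genes, had −1.65 (SE 0.42) and 1.77 (SE 0.43) without overlap of groups. Zfp36, which destabilises cytokine transcripts, had −2.08 (SE 0.71) and 1.83 (SE 0.71), Nfkbiz, a cofactor of NF-kB, −1.82 (SE 0.63) and 1.85 (SE 0.63), and Mmp9, a protease that cleaves chemokines and also an osteoclast marker, 2.39 (SE 0.78) and −1.91 (SE 0.77).

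Of 6 chemokine-like genes with other symbols, Pf4, the platelet CXC ligand, had a log2 fold change of 2.28 (SE 0.75, edgeR adjusted p = 0.496) for Mg-ALN gel versus ALN gel and 1.68 (SE 0.73, 0.53) against Gel, without overlap in either. Mif, which binds Cxcr2 and Cxcr4, had 3.44 (SE 1.03, edgeR adjusted p = 0.528) for ALN gel versus Gel and −3.28 (SE 1.03, 0.496) for Mg-ALN gel versus ALN gel, with overlap in both. In the 3 comparisons, 0 of the 6 passed after adjustment.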

How the data were processed

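RNA was poly-A selected and sequenced, per the labels' protocols. The authors deposited read counts per gene and FPKM for all 9 libraries in tables of the whole series; per the submitters' processing notes reads were handled with fastp and HISAT2 2.0.5, while featureCounts 1.5.0-p3 and StringTie 1.3.3b are also named there, as are edgeR 3.22.5 and DESeq2 1.20.0. The genome build, annotation version and strand setting were not given in the sources used here. FPKM as deposited by the authors served only to compare levels between genes.

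Groups follow the sample titles. Counts as deposited were fitted over all 9 libraries with edgeR 4.0.16 in R 4.3.3, after filterByExpr (minimum count 10), which left 15460 of 35360 genes, with TMM scaling, a quasi-likelihood test and Benjamini-Hochberg adjustment over all genes tested at 0.05. Standard errors were the log2 fold change divided by the root of its F statistic. CPM were counts scaled to the TMM-adjusted library size. The common biological coefficient of variation was 51.4%. An exact permutation test of 3 libraries against 3 cannot go below p = 0.1, so single genes were tested in the fit across all genes. The fits were also run on simulated data with known fold changes, in which every gene had the common coefficient of variation. The median member spread more within groups than the median gene, so that run does not show how the fits perform for the members. Alternatives were RLE scaling, no filter, DESeq2 1.42.0, limma 3.58.1 (voom with sample quality weights), the replicate number as a block, only the groups compared, the mitochondrial share as a covariate, and leaving out each library.

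The labels number replicates 1 to 3 in each group without saying what a number marks. Correlations of same-numbered deviations from the group means were 0.341, 0.419 and 0.226 between ALN gel and Gel (other numbers −0.283 to −0.0125). The numbers were therefore taken as pairing these groups, a choice read from the values and not tested. Deviations cancel within a group, so the values for other numbers follow in part from the same-numbered ones. The same-numbered values were 0.13, −0.12 and −0.127 between Mg-ALN gel and ALN gel, and −0.0767, −0.0452 and −0.199 between Mg-ALN gel and Gel. The numbers were not taken as pairing there, and Mg-ALN gel library 2 with ALN gel library 3 reached 0.32. No library pair differed by as little as sampling noise (lowest chi-square per degree of freedom 72.3).

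Members and gene lists were chosen with earlier results of these data known. Values in every library are given for members with an unadjusted p under 0.05 in a comparison, for the 8 ligands and 6 receptors with the highest mean FPKM and for Ccl9, Ccl2, Cxcl12, Cxcr4, Ccr1 and Cx3cr1; any other member given so was chosen after its values were seen, and 1 tested member is not reported here. From the other lists up to 4 genes with the lowest p are named. Promoters came from RefSeq (GRCr8) by symbol and matched 42 of 55 members; their coordinates are of another build than those of the count table. Intervals and limits of 3 counts cover counting error only.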

Additional observations from a re-analysis of the deposited data

How the results depend on the processing

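Over 16 alternatives, the 17 member values with an unadjusted p under 0.05, chosen for a clear difference, gave 272 recomputed values, all of the same sign as reported. Of the other 112 values of tested members, 58 changed sign in at least 1 alternative. With limma-voom these included Ackr3 (−1.62), Cxcl10 (−0.25) and Cxcl11 (−0.75) in ALN gel versus Gel, and Ccl4 (−1.42), Cxcl13 (−0.13) and Cxcl16 (−0.17) for Mg-ALN gel versus ALN gel. Of the 272, 7 passed an adjusted p of 0.05 where the reported edgeR value did not: Ccl9 in ALN gel versus Gel with DESeq2, with limma-voom and without ALN gel library 3, Ccl22 there with DESeq2, and Ccl9, Ccl22 and Cxcl1 in Mg-ALN gel versus ALN gel with DESeq2. The count of called members, 0 in every edgeR fit of all libraries, was 2 with DESeq2 and 1 with limma-voom in ALN gel versus Gel and ranged from 0 to 1 when single libraries were left out. In the joint test it was 2 with DESeq2, 1 with limma-voom and 0 to 1 without single libraries, and in Mg-ALN gel versus ALN gel 3 with DESeq2. The cause was not tested. The median over members in ALN gel versus Gel ranged from −1.06 to 0.14 without single libraries and was 0.15 with the mitochondrial covariate; in Mg-ALN gel versus ALN gel it was −0.32 with no filter and −0.56 with limma-voom, and in Mg-ALN gel versus Gel 0.44 with the covariate. At an unadjusted p under 0.05, the count of lower members in Mg-ALN gel versus Gel was 4 with limma-voom against 0 as reported.

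With the replicate block, 0 members were called in any comparison, Ccl9 in ALN gel versus Gel was 3.23 (edgeR adjusted p = 0.275), and the members' median there was −0.34. The block changed no adjusted call. Counts at an unadjusted p under 0.05 are also given for the comparisons where the numbers were not taken as pairing. They were 7 higher (16.3% against 4.9% of genes) and 7 lower (16.3% against 5.43%) in Mg-ALN gel versus ALN gel. For Mg-ALN gel versus Gel they were 1 higher (against 6.61%) and 2 lower (against 4.66%). In ALN gel versus Gel, where the numbers were taken as pairing, the counts were 4 and 2.

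Depth limits the 12 untested members, which had 47 counts or fewer over all libraries.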
